A study of Homo sapiens with 4 samples.

Results

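C/D box small nucleolar RNAs were followed in BLaER1, a human B cell leukaemia line, after and before its conversion into macrophage-like cells. Members were the rows of the expression table whose symbol begins with SNORD and a digit and whose value was above 0 in every library, and 9 of 375 such rows met this rule. They were SNORD3A, SNORD3B-1, SNORD3B-2 and SNORD3C, which are copies of the U3 RNA, and SNORD118, SNORD15B, SNORD17, SNORD10 and SNORD97. The whole table held 58302 rows. The members were chosen by the TPM values that are described here, so their differences between stages are a description and support nothing further.

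Total RNA was sequenced in 4 libraries, 2 of differentiated cells (Diff) and 2 of undifferentiated cells (UnDiff). Diff cells had received IL-3, M-CSF and 100 nM oestradiol for 5 to 6 days, per the labels' protocols, where a dose of 10 ng/ml stands once, before IL-3, and may or may not hold for M-CSF. UnDiff cells were the same line in serum-containing RPMI medium. Cells of both stages carry the driver of the conversion, as is known for this line: C/EBPα, a transcription factor, made as a fusion with the oestrogen receptor's hormone-binding domain and switched on by oestradiol. All libraries come from this 1 line, and the labels do not state whether each was a culture of its own, so p-values cover only the variation among these 4 libraries, part or all of it possibly technical.

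Stage labels were checked against marker genes. All 12 B lineage markers were lower in both Diff libraries than in either UnDiff library, with summed levels of 19.98 and 19.15 TPM in Diff cells and 515 and 302 TPM in UnDiff cells. All 12 macrophage markers were higher, at 776 and 872 TPM in Diff cells and 8.61 and 6.69 TPM in UnDiff cells. Of 4 granulocyte markers 3 were at 0 in every library, and 4 erythroid markers summed to 0.47 and 0.42 TPM in Diff cells and 0 in UnDiff cells. Of 6 T cell markers, CD3D and CD3E were at 0 throughout. CD2 was at 0.70 and 0.13 TPM, CD3G at 0.13 and 0.16 TPM and CD8A at 0 and 0.02 TPM in Diff cells. These were at 0 in both UnDiff libraries. The T cell receptor constant gene TRAC was listed at 3.82 and 6.61 TPM in Diff cells and 109.9 and 51.5 TPM in UnDiff cells.

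C/D box snoRNAs are short RNAs of the nucleolus that carry a C box near one end and a D box near the other. With the methyltransferase fibrillarin and its partner proteins they pair with ribosomal, spliceosomal or transfer RNA and direct methylation of the ribose of a chosen nucleotide. A few, U3 and U8 among them, instead serve the cutting of the ribosomal RNA precursor. Most human members lie in introns of other genes and are released when the intron is broken down, whereas U3 and U8 genes have promoters of their own.

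The sequences below show how 4 of the members differ in length and box structure. They were taken from GENCODE release 29 by gene ID, with the shortest annotated transcript for SNORD3A, and are written 5′ to 3′. Capitals mark the first TGATGA, the core of the C box, and the last CTGA, the D box, where present.
SNORD3A: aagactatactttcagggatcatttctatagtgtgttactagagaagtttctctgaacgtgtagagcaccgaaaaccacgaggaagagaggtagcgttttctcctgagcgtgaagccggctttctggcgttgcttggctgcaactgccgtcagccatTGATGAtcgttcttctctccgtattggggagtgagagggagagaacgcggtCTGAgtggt
SNORD17: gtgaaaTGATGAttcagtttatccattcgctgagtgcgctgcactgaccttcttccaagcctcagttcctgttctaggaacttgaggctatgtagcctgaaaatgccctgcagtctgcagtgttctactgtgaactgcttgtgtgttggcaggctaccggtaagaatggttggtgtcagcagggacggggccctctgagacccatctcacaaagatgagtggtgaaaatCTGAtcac
SNORD10: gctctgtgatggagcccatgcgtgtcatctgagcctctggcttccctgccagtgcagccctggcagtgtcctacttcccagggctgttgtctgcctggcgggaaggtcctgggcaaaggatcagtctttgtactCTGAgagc
SNORD97: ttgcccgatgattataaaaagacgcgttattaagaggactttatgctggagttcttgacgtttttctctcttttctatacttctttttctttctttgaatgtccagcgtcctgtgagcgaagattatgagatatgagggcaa

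All 9 members were annotated as snoRNA. SNORD17 carries TGATGA from base 7 and a CTGA that ends 4 bases before the last base, the usual layout of a methylation guide. In SNORD3A the TGATGA begins at base 158 of 217, as it sits in the second part of U3. SNORD10 has the CTGA but no TGATGA, and SNORD97 has neither of these exact letter strings. On the sense strand TGATGA was found in 7 of 9 members (77.8%), in 68.5% of all 375 SNORD rows and in 2.85% of 421 H/ACA box snoRNA rows, the other large class, whose symbols begin with SNORA. A CTGA in the last 20 bases was found in 8 of 9 members (88.9%), 88.8% of SNORD rows and 9.26% of H/ACA rows. The 4 U3 copies are nearly identical, so these are not 9 independent sequences. On the antisense strand TGATGA was found in 0 members, 2.67% of SNORD rows and 1.43% of H/ACA rows, and CTGA in 8 members, 24.8% and 48.9%.

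What the members share beyond the rule is length. SNORD rows had a median length of 78 bases, and 336 of the 375 were 100 bases or shorter. None of those 336 was above 0 in any library. Of 19 rows of over 100 and up to 130 bases, 8 were above 0 in a Diff library and 0 in an UnDiff library. Of 20 rows of over 130 bases, 14 were above 0 in at least 1 library and 9 in all. The members are therefore the long end of the family: SNORD118 has 134 bases, SNORD10 and SNORD97 have 142, SNORD15B has 146, SNORD17 has 237 and the U3 copies have 217 in their shortest annotated transcript. Counts of rows by length use the longest transcript of a gene in GENCODE release 29, which is 581 to 791 bases for the U3 copies.

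The same limit held for every class of gene and lay at a different length in each library. The shortest gene above 0 had 102 and 109 bases in the Diff libraries and 128 and 122 bases in the UnDiff libraries. Of 2554 rows of over 100 and up to 120 bases, 65 and 17 were above 0 in the Diff libraries and 0 and 0 in the UnDiff libraries. All 9 members are longer than the shortest gene listed in each library. The authors' abundance tool, RSEM, as generally described, divides by a length corrected for the fragment lengths of a library, and the sources used here do not give those fragment lengths. The part of this difference between libraries in the members' values was not tested.

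**Figure D1:**
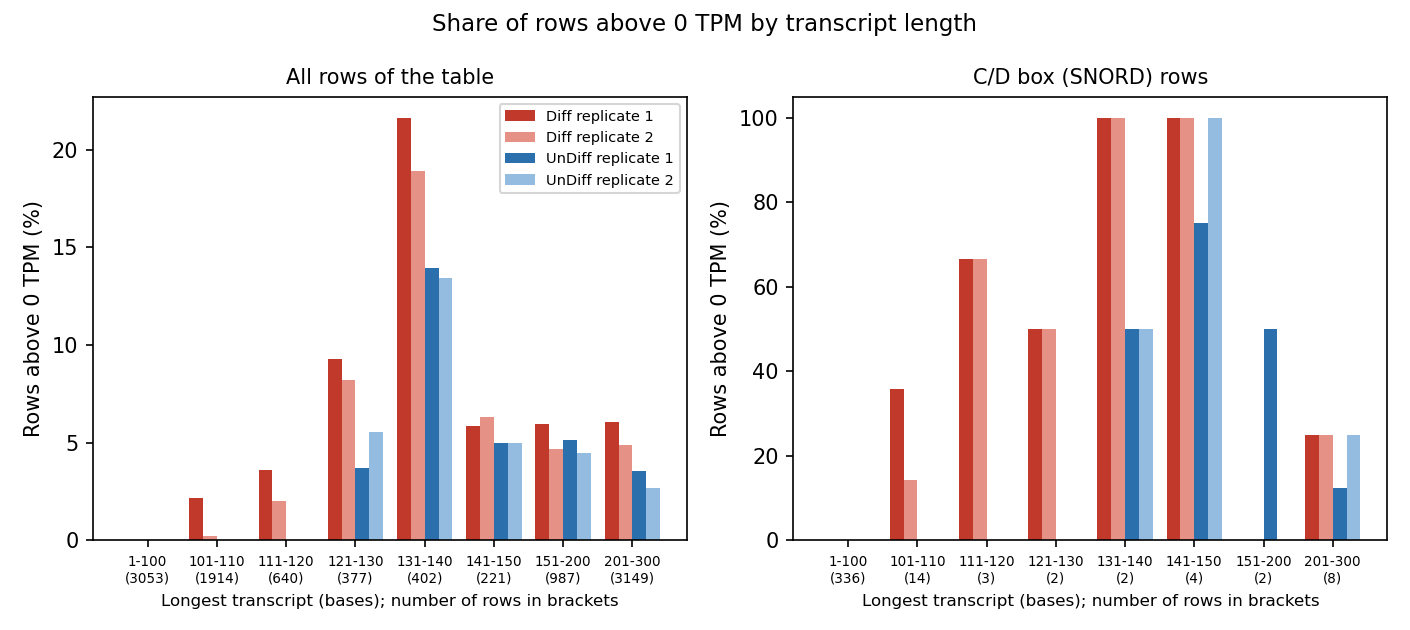
Share of rows above 0 TPM (vertical axes, percent) by longest annotated transcript in bases (horizontal axes, number of rows in brackets) in each of the 4 libraries, for all rows on the left and for SNORD rows on the right. No row of 100 bases or less was above 0, and rows of over 100 and up to 120 bases were above 0 in Diff libraries alone.

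Together the 9 members summed to 7405 and 5174 TPM in Diff cells and 1303 and 1604 TPM in UnDiff cells, which is 0.740% and 0.517% of all TPM in Diff libraries and 0.130% and 0.160% in UnDiff libraries. SNORD3A alone made up 51.9% and 54.0% of that sum in Diff cells and 52.6% and 63.2% in UnDiff cells. Of the 9, SNORD3A, SNORD15B, SNORD10, SNORD118 and SNORD17, were higher in both Diff libraries than in either UnDiff library, which makes 5 members, and the other 4 overlapped between stages. Differences below are on the log2(TPM + 1) scale, Diff minus UnDiff, from a limma fit over 10180 genes that reached 1 TPM or more in 2 or more libraries, which all 9 members passed, and a gene is called at a Benjamini-Hochberg adjusted p under 0.05 over all these genes.

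**Figure D2:**
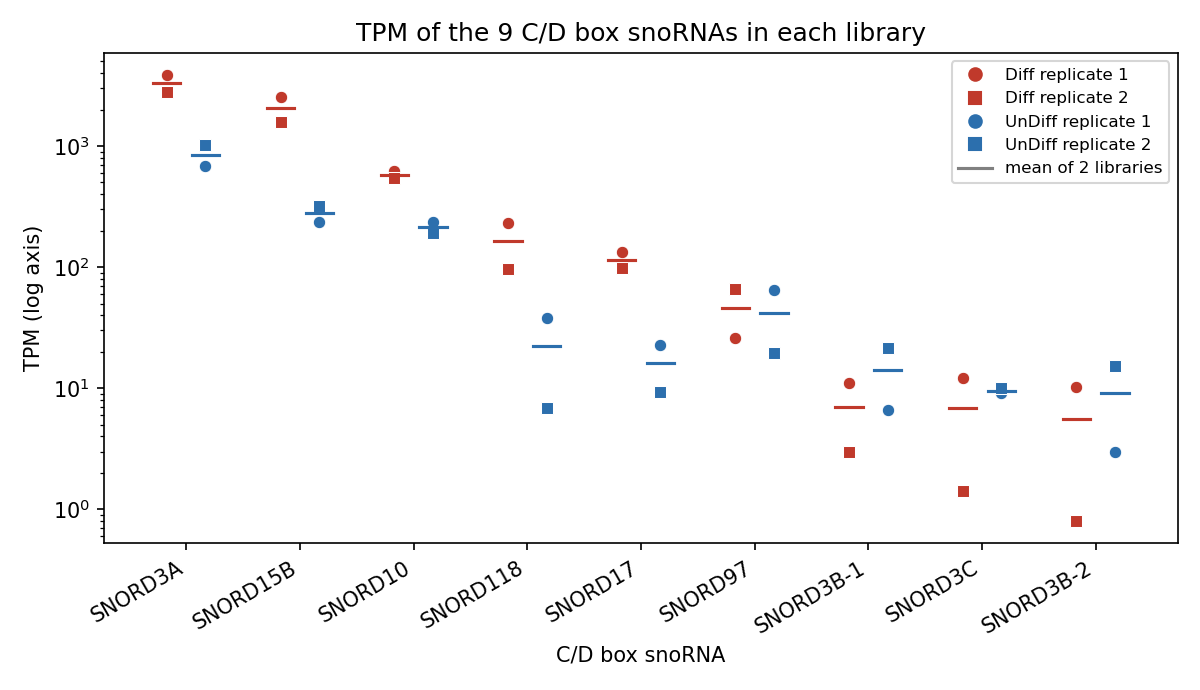
TPM of each member (vertical axis, log scale) in the 2 Diff libraries (red, left) and the 2 UnDiff libraries (blue, right), with lines at stage means. SNORD3A, SNORD15B, SNORD10, SNORD118 and SNORD17 show no overlap between stages, while SNORD97 and the minor U3 copies do.

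U3 guides early cuts in the ribosomal RNA precursor that lead to the small ribosomal subunit. SNORD3A, on chromosome 17 as are all U3 copies here, was at 3840 and 2795 TPM in Diff cells and 686 and 1014 TPM in UnDiff cells. Both Diff values lay above both UnDiff values, with means of 3317 ± 739 TPM in Diff cells and 850 ± 232 TPM in UnDiff cells (SD, n = 2 each), a ratio of 3.90. Its log2 difference was 1.97 ± 0.32 (SE).

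The other 3 U3 copies were low. SNORD3B-1 was at 11.1 and 3.0 TPM in Diff cells and 6.67 and 21.4 TPM in UnDiff cells. SNORD3C was at 12.2 and 1.41 TPM in Diff cells and 9.05 and 10.1 TPM in UnDiff cells. SNORD3B-2 was at 10.2 and 0.80 TPM in Diff cells and 3.0 and 15.1 TPM in UnDiff cells. Each was lowest in Diff replicate 2 and higher in UnDiff replicate 2 than in UnDiff replicate 1, and the stages overlapped for all 3. Their log2 differences of -0.91 ± 0.57, -0.90 ± 0.61 and -0.84 ± 0.75 (SE, in the same order) were not called.

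Values of single U3 copies are uncertain, since their sequences leave little to tell reads apart. Counted from 1 at the 5′ end of the 217-base transcript, SNORD3B-1 and SNORD3B-2 differ from SNORD3A by the single change A78C and SNORD3C by the single change G108A. SNORD3D, left out by the rule because it was at 0 in 3 libraries, differs by A4G, C53T and A78C. With all 5 copies summed, U3 was at 3874 and 2800 TPM in Diff cells and 704 and 1060 TPM in UnDiff cells, a log2 difference of 1.93 ± 0.32 (SE, limma adjusted p = 0.000374). The sum differed between stages much as SNORD3A did, and the 3 minor copies among the members together contributed 33.6 and 5.21 TPM in Diff cells and 18.7 and 46.6 TPM in UnDiff cells.

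U8, encoded by SNORD118, is needed for the processing of the large-subunit ribosomal RNAs. It was at 230 and 96.8 TPM in Diff cells and 38.1 and 6.83 TPM in UnDiff cells. The stages did not overlap, although libraries of the same stage stood far apart, with UnDiff replicate 2 the lowest. The log2 difference of 3.10 ± 0.62 (SE) was the largest among the members and had the largest error of the 5 that did not overlap. It was 1.94 without UnDiff replicate 2 and 4.26 without UnDiff replicate 1.

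SNORD15B and SNORD17 guide methylation of 28S ribosomal RNA. SNORD15B, in an intron of the ribosomal protein gene RPS3 on chromosome 11, was at 2521 and 1573 TPM in Diff cells and 237 and 318 TPM in UnDiff cells. The lower Diff library was several times above the higher UnDiff library, and the log2 difference was 2.85 ± 0.34 (SE). SNORD17, in an intron of the endosomal sorting nexin gene SNX5 on chromosome 20, was at 132 and 98.5 TPM in Diff cells and 22.8 and 9.29 TPM in UnDiff cells, a log2 difference of 2.88 ± 0.43 (SE). The ratios of stage means were alike, 7.38 for SNORD15B and 7.19 for SNORD17, as was that of SNORD118 at 7.26.

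SNORD10 guides methylation of the spliceosomal U6 RNA and lies within EIF4A1, the gene of a translation initiation helicase on chromosome 17. It was at 623 and 540 TPM in Diff cells and 237 and 190 TPM in UnDiff cells. Relative to their mean its libraries varied least within each stage among the 5 members whose stages did not overlap. Its log2 difference of 1.45 ± 0.33 (SE) was the smallest of these 5.

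SNORD97, known to guide methylation of a methionine transfer RNA, lies within EIF4G2 on chromosome 11. It was at 26.1 and 65.6 TPM in Diff cells and 64.3 and 19.4 TPM in UnDiff cells. Each stage had 1 high and 1 low library, and the means of 45.8 ± 27.97 TPM in Diff cells and 41.8 ± 31.7 TPM in UnDiff cells (SD, n = 2 each) differed by less than the spread within either stage. Its log2 difference of 0.22 ± 0.55 (SE) was not called, and its sign turned when RN7SK was taken out before rescaling (-0.11) or when libraries were scaled to their H/ACA box snoRNAs (-0.27).

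The order of the members by mean level in Diff cells was SNORD3A, SNORD15B, SNORD10, SNORD118, SNORD17, SNORD97 and then the minor U3 copies. In UnDiff cells the first 3 kept their places, and SNORD97 at 41.8 TPM stood above SNORD118 at 22.5 TPM and SNORD17 at 16.1 TPM. Among neighbours in Diff cells, library values overlapped for SNORD118 with SNORD17 and among the 3 minor U3 copies. In UnDiff cells they overlapped for SNORD15B with SNORD10, by less than 1 TPM, and for each pair of neighbours from SNORD97 down. TPM are divided by a length, but the corrected lengths used are not known here and the U3 copies have transcripts of unlike length, so the order between members of different length is uncertain.

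Of the 9 members, 5 were called higher and 0 lower (limma; 5 and 0 also at an unadjusted p under 0.05), with adjusted p of 3.2e-05 for SNORD15B, 0.000165 for SNORD17, 0.000308 for SNORD3A, 0.00141 for SNORD118 and 0.00303 for SNORD10. Over all tested genes 18.6% were called higher, 22.8% lower and 41.4% either way. Nothing is read from the members' share, because the rule used the same values. By overlap alone, 5 of 9 members and 31% of tested genes were higher in both Diff libraries, and 70% of tested genes did not overlap in either direction. The smallest two-sided p that an exact permutation test can reach with 2 libraries a stage is 0.333. The median log2 difference was 1.45 over the members and -0.14 over all tested genes.

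The 5 log2 differences stayed above 1 when either Diff library was left out, but most calls were lost. Without Diff replicate 1 they were 1.74 for SNORD3A, 2.48 for SNORD118, 2.51 for SNORD15B, 2.67 for SNORD17 and 1.35 for SNORD10, and without Diff replicate 2 they were 2.20, 3.72, 3.19, 3.09 and 1.55 in the same order. At an unadjusted p under 0.05, 4 members were higher and 1 lower without Diff replicate 1, and 5 higher and 0 lower without Diff replicate 2. By adjusted p, without Diff replicate 1 only SNORD15B was still called (adjusted p = 0.0251), and SNORD3A had an adjusted p of 0.0679, SNORD17 of 0.0779, SNORD10 of 0.131 and SNORD118 of 0.201. Without Diff replicate 2, SNORD15B (0.00995) and SNORD3A (0.0344) were called, and SNORD17 (0.0504), SNORD118 (0.0772) and SNORD10 (0.0937) were not. Over all genes the share called higher was 9.32% and 9.17% in these 2 fits. Without UnDiff replicate 1 the log2 differences were 1.69, 4.26, 2.64, 3.48 and 1.61 in that order, beside a median of 0.15 over all tested genes. Without UnDiff replicate 2 they were 2.25, 1.94, 3.07, 2.27 and 1.29, beside a median of -0.43. That order is SNORD3A, SNORD118, SNORD15B, SNORD17 and SNORD10. With no filter on low values, where 29186 rows were tested and 2.35% were called higher, SNORD15B was the only member called (adjusted p = 0.0368).

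The directions and calls of these 5 members held under each scaling of the libraries that was run. RN7SK, an abundant small nuclear RNA known for holding back transcription elongation, took 20.9% and 23.5% of all TPM in Diff libraries and 35.5% and 41.7% in UnDiff libraries, and such a share lowers every other value. The median difference over all tested genes was -0.41 with RN7SK taken out, 0.04 with median-of-ratios scaling, -0.08 with quantile normalization, 0.31 with libraries scaled to protein-coding genes and -0.55 when scaled to H/ACA box snoRNAs. Against these, the median over the members was 1.11, 1.67, 1.79, 2.01 and 0.94. The share of all tested genes called higher was 15.6%, 28.6%, 25.4%, 36.3% and 13.9% in the same order.

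The genes that hold the members went the other way or were not called. In GENCODE release 29, 5 members lie on the same strand within a protein-coding gene, and the U3 copies lie in none. RPS3 was at 174 and 190 TPM in Diff cells and 294 and 227 TPM in UnDiff cells. SNX5 was at 25.7 and 27.6 TPM in Diff cells and 58.7 and 29.3 TPM in UnDiff cells. EIF4G2, a translation factor gene, was at 79.1 and 78.2 TPM in Diff cells and 188 and 103 TPM in UnDiff cells.

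EIF4A1 was at 66.8 and 56.7 TPM in Diff cells and 249.9 and 140 TPM in UnDiff cells, and it alone of the 5 was called (log2 difference -1.59 ± 0.38 (SE), limma adjusted p = 0.00436). TMEM107, a gene of the cilium whose last exon covers SNORD118 in 1 transcript, was at 1.88 and 1.48 TPM in Diff cells and 5.16 and 3.38 TPM in UnDiff cells (adjusted p = 0.0588). For all 5 genes both Diff libraries lay below both UnDiff libraries, as they did for 39% of tested genes. Of the 5, 1 was called lower and 0 higher (2 and 0 at an unadjusted p under 0.05), beside 22.8% of all tested genes called lower, with a median log2 difference of -0.81. All 5 were called lower with RN7SK taken out or with scaling to H/ACA box snoRNAs. In these fits 32.7% and 36.4% of all tested genes were called lower. RPS3 turned to 0.057 with quantile normalization and 0.058 with scaling to protein-coding genes. With the latter, SNX5 was at -0.07, EIF4G2 at -0.25, TMEM107 at -0.55 and EIF4A1 at -1.03, beside a median of 0.31 over all tested genes. The EIF4A1 call was lost without Diff replicate 1 or Diff replicate 2, where its log2 difference was -1.70 and -1.47. Without UnDiff replicate 2 the log2 differences of the 5 genes ran from -2.00 to -0.69, beside a median of -0.43 over all tested genes. Without UnDiff replicate 1 they ran from -1.17 (EIF4A1) to -0.13 (SNX5), beside a median of 0.15.

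Within a library, the level of a member relative to its holding gene is not altered by a scaling factor for the library, apart from the added 1 TPM. The limit on length described above differed between libraries, and its part in these relative levels was not tested. SNORD15B stood above RPS3 by 3.85 and 3.04 on the log2(TPM + 1) scale in Diff cells and by -0.31 and 0.49 in UnDiff cells. SNORD17 relative to SNX5 was 2.32 and 1.8 in Diff cells and -1.33 and -1.56 in UnDiff cells. SNORD10 relative to EIF4A1 was 3.20 and 3.23 in Diff cells and -0.08 and 0.44 in UnDiff cells.

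SNORD118 relative to TMEM107 was 6.32 and 5.30 in Diff cells and 2.67 and 0.84 in UnDiff cells. For these 4 pairs both Diff libraries lay above both UnDiff libraries. SNORD97 relative to EIF4G2 was -1.57 and -0.25 in Diff cells and -1.53 and -2.35 in UnDiff cells, and here the stages overlapped. SNORD15B and SNORD17 overlap no exon of their holding gene in the annotation. SNORD10 lies inside an exon of 1 EIF4A1 transcript and SNORD97 overlaps an exon of 1 EIF4G2 transcript, so reads of these pairs and of SNORD118 with TMEM107 may have been shared between both genes.

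**Figure D3:**
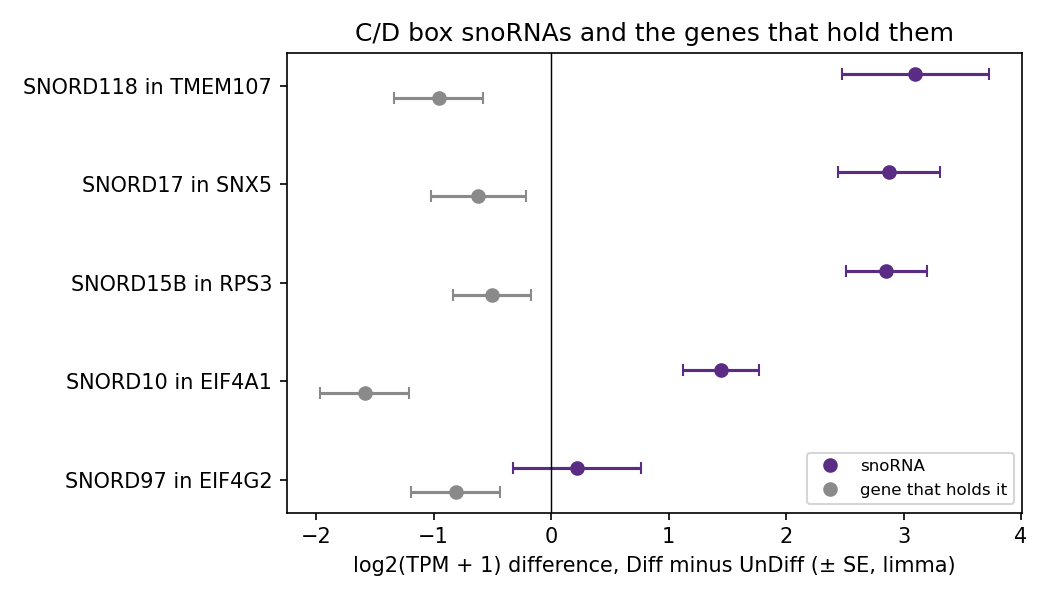
Log2(TPM + 1) difference, Diff minus UnDiff, with its standard error, for 5 members (purple) and the gene that holds each (grey). Points of SNORD118, SNORD17, SNORD15B and SNORD10 lie at 1.45 to 3.10 and that of SNORD97 at 0.22 ± 0.55. Those of the holding genes lie at -1.59 to -0.50.

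Genes for the proteins of the C/D box particle were listed beside the members. Of 17 core and assembly genes, all tested, 10 were called lower, 0 higher and 7 were not called (11 lower and 0 higher at an unadjusted p under 0.05), with a median log2 difference of -0.97, where 22.8% of all tested genes were called lower. NOP58, a core protein, was at 6.06 and 8.85 TPM in Diff cells and 57.5 and 35.7 TPM in UnDiff cells, a log2 difference of -2.47 ± 0.40 (SE, limma adjusted p = 0.000274). NOP56, its partner in the core, was at 17.3 and 17.4 TPM in Diff cells and 93.8 and 58.4 TPM in UnDiff cells (-2.03 ± 0.38, adjusted p = 0.000798). Both fell severalfold.

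FBL, which encodes the methyltransferase fibrillarin, was at 6.10 and 9.59 TPM in Diff cells and 23.3 and 19.0 TPM in UnDiff cells (-1.34 ± 0.39 (SE), limma adjusted p = 0.0138). SNU13, the fourth core protein and one that also binds U4 RNA, was at 7.22 and 10.1 TPM in Diff cells and 12.5 and 8.05 TPM in UnDiff cells, and its stages overlapped. Among assembly factors, the ATPase gene RUVBL2 was lower at 3.08 and 3.40 TPM in Diff cells against 15.5 and 13.9 TPM in UnDiff cells (-1.89 ± 0.38, adjusted p = 0.0013), as were RUVBL1, ZNHIT6 and C12orf45. NOLC1, a nucleolar chaperone of snoRNA particles, and TGS1, which modifies the cap of U3 and U8, were also called lower (-2.18 ± 0.42 and -1.62 ± 0.43), as was RRP9, a protein specific to the U3 particle (-0.94 ± 0.30). PHAX, NUFIP1, RPAP3, ZNHIT3, PIH1D1 and the lariat debranching enzyme gene DBR1 were not called. The C12orf45 call (limma adjusted p = 0.0413) was lost with median-of-ratios scaling, a pseudocount of 0.1 or the replicate number as a block. Scaling to protein-coding genes lost it and the RRP9 call, and the block also lost the RUVBL1 call. Without Diff replicate 1 or Diff replicate 2 the number called lower was 0 and 1 (4 and 5 at an unadjusted p under 0.05), where the share of all tested genes called lower was 3.38% and 3.31%, and NOP58 had an adjusted p of 0.0812 and 0.0492.

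H/ACA box snoRNAs, which guide pseudouridine formation, are the class most like the members. Of 421 rows 57 (13.5%) were above 0 in all libraries, compared with 9 of 375 (2.4%) for C/D box rows. Of these 57, 26 (45.6%) were called higher, 8 (14.0%) lower and 23 were not called, with a median log2 difference of 0.94. Over all tested genes 18.6% were called higher and 22.8% lower. Their summed level was 59460 and 62136 TPM in Diff cells and 43865 and 41657 TPM in UnDiff cells. Among all 57 genes of over 120 and up to 150 bases that were above 0 in every library, 26 were called higher and 9 lower, also with a median of 0.94. This is largely the same set, since all but 6 of them are H/ACA rows or the members SNORD118, SNORD10, SNORD97 and SNORD15B, and those 6 had a median of 1.70. The median was 0.47 for 50 genes of over 150 and up to 300 bases, -0.65 for 463 genes of over 300 and up to 1000 bases, and -0.16 for 9126 longer genes. No test compared the members with either set, and the part of length in the members' differences was not tested.

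**Figure D4:**
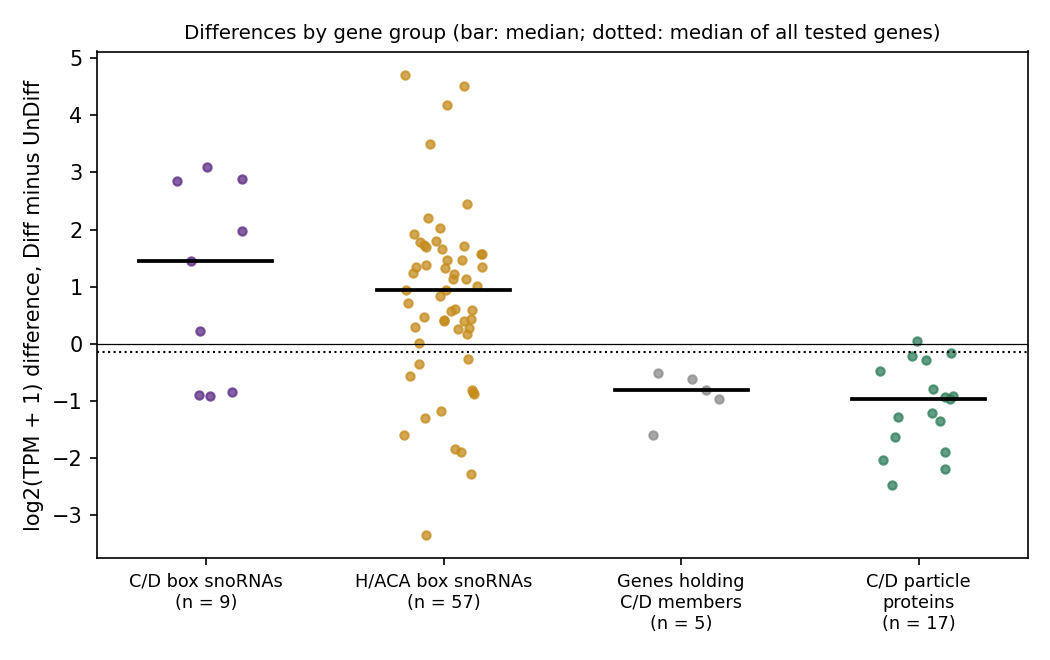
Log2(TPM + 1) difference, Diff minus UnDiff, of each gene in 4 groups, with bars at the group medians of 1.45, 0.94, -0.81 and -0.97 and a dotted line at -0.14, the median of all 10180 tested genes. Both snoRNA classes hold genes on either side of 0, while all 5 holding genes and 16 of 17 particle protein genes lie below it.

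The rule left out 366 SNORD rows, of which 353 were at 0 in every library and 13 were above 0 in some. Of these 13, 6 were above 0 in both Diff and neither UnDiff library, 4 in 1 Diff library only, and 1 in UnDiff alone. An exact 0 may be a failed estimate, so these values are a listing and are not read as changes. SNORD89, a C/D box RNA of 114 bases with no agreed target, was listed at 17776 and 11928 TPM in Diff cells and at 0 in both UnDiff libraries. SNORD13, the U13 RNA of 104 bases that guides acetylation of 18S ribosomal RNA, was listed at 4424 TPM in Diff replicate 1 and at 0 elsewhere. Both other RNAs of 104 bases were listed in this way, with 1669 TPM for the U6 guide SNORD9 and 709 TPM for the 28S guide SNORD46.

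All of these are shorter than the shortest gene above 0 in the UnDiff libraries, and the 3 of 104 bases are also shorter than that in Diff replicate 2. This does not hold for every left-out row. SNORD94, of 137 bases and longer than that length in each library, was at 35.8 and 42.1 TPM in Diff cells. SNORD22, of 126 bases, was at 359.5 and 166.6 TPM in Diff cells and is longer than the 122 bases of UnDiff replicate 2. Both were at 0 in both UnDiff libraries. The left-out rows summed to 25769 and 12573 TPM in Diff cells and 2.49 and 34.5 TPM in UnDiff cells, more than the members in Diff cells and far less in UnDiff cells. Of all these rows, SNORD15A came closest to the rule, at 117 and 50.1 TPM in Diff cells and 0 and 33.4 TPM in UnDiff cells. It has 148 bases. SNORD8, a U6 guide of 110 bases, was at 302 and 278 TPM in Diff cells and 0 in both UnDiff libraries. Just inside the rule, the lowest values were 0.80 TPM for SNORD3B-2, 1.41 TPM for SNORD3C and 3.0 TPM for SNORD3B-1, each in Diff replicate 2.

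Since whole cell populations were sequenced, fewer cells that hold an RNA and less of it per cell cannot be told apart. Sequencing depth is lost in TPM and is unknown for all 4 libraries, so neither a counting error nor a limit of detection can be computed.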

How the data were processed

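RNA from BLaER1 cells was measured in 2 Diff and 2 UnDiff libraries, stranded and made from total RNA, per the labels' protocols. The deposited values are TPM, estimated reads per gene divided by length and scaled to the same sum, made by the authors with RSEM, STAR and Trimmomatic per the submitters' processing notes. The sources used here do not state versions, settings, genome build or annotation. Columns were matched to samples by title, and 0 value columns were left out. Members and gene lists were chosen with earlier results of these data known. Lengths, holding genes and sequences came from GENCODE release 29 by Ensembl ID (57980 of 58302 IDs had a length), which need not be the authors' annotation. One member's sequence is not reported here. A holding gene is the protein-coding or long noncoding gene that spans a member on its strand, the one with the highest mean TPM where there are several.

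The 10180 genes that reached 1 TPM or more in 2 or more libraries were compared on log2(TPM + 1), which understates the change of low genes, with limma 3.58.1 in R 4.3.3 (mean-variance trend, two-sided, 2 residual and 10.9 prior degrees of freedom) and Benjamini-Hochberg adjustment. The fit was tested on simulated data. It recovered 9.1%, 77.7% and 100% of changes of log2 size 1, 2 and 4, and 5.05% of its calls were false. A gene that was not called may therefore still differ. Variances were drawn from the model's own prior, so this test cannot show whether the model's assumptions hold. Named were all members, their holding genes, the listed particle proteins, and left-out rows with the highest TPM or the most libraries above 0.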

Additional observations from a re-analysis of the deposited data

How the results depend on the processing

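Of the counts of calls, that of the members stayed at 5 higher and 0 lower under every scaling, with a pseudocount of 0.1, a filter of 5 TPM, limma without a trend and U3 copies summed. In these fits the share of all tested genes called higher ran from 13.9% (scaling to H/ACA box snoRNAs) to 36.3% (scaling to protein-coding genes). Scaling to protein-coding genes or to H/ACA box snoRNAs and the summing of U3 copies were chosen after seeing the data. Without a filter on low values, where 29186 rows were tested, 1 member (SNORD15B), 0 holding genes and 1 particle protein gene were called (5, 2 and 10 at an unadjusted p under 0.05), and with 1 library left out these counts ranged from 1 to 5, 0 to 4 and 0 to 13. The holding genes called were 2 with median-of-ratios scaling, quantile normalization or no trend, beside 26.0%, 29.4% and 22.0% of all tested genes called lower. They were 5 with RN7SK taken out or with scaling to H/ACA box snoRNAs, beside 32.7% and 36.4%. The members' median difference was 2.01 with scaling to protein-coding genes and 1.29 to 1.61 with 1 library left out. Where a library is left out, the lone library of its stage is assumed to vary like those of the other stage. The cause of these shifts was not tested.

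Only values that were not called changed sign. With 1 library left out, the log2 difference ranged from -0.62 to 1.06 for SNORD97, -2.16 to 0.48 for SNORD3B-2, -2.13 to 0.33 for SNORD3C, -0.50 to 0.079 for SNU13, -0.18 to 0.27 for PIH1D1, -0.59 to 0.28 for DBR1 and -0.66 to 0.087 for ZNHIT3. SNORD97 was at -0.11 and PIH1D1 at -0.26 with RN7SK taken out, and they were at -0.27 and -0.40 with scaling to H/ACA box snoRNAs. With scaling to protein-coding genes RPS3 was at 0.058, SNU13 at 0.30, DBR1 at 0.23 and ZNHIT3 at 0.19. RPS3 was at 0.057 with quantile normalization and DBR1 at 0.014 with median-of-ratios scaling.

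Replicate numbers are shared by both stages, but nothing says that they mark a shared culture or day, and the deviations of libraries with the same number correlated at -0.02. With the replicate number as a block, 5 members were called higher, and 1 holding gene and 8 particle protein genes were called lower. In this fit 16.99% of all tested genes were called higher and 20% lower. Depth is unknown, so what it limits could not be computed.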

Other observations

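Rows of related RNAs whose symbol is not SNORD and a digit were looked up beside the members. Of 51 rows with the symbol U3, 2 were above 0 in any library, with summed levels of 1.22 and 0 TPM in Diff cells and 8.84 and 8.45 TPM in UnDiff cells. Of 22 rows with the symbol U8, 1 was above 0, at 0 and 12.9 TPM in Diff cells and 0 in both UnDiff libraries. All 31 rows with the symbol snoU13 were at 0.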
